A study of Mus musculus with 8 samples.

Results

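The genes described here encode the machinery that sorts membrane proteins at endosomes and delivers vesicles to the lysosome. They were taken from the deposited count table by symbol: every name that begins with Vps or Chmp and a digit, and the names Tsg101, Hgs, Stam, Stam2, Snf8, Ist1, Pdcd6ip, Mvb12a, Mvb12b and Ubap1, without pseudogenes or opposite-strand names. This gave 55 of 55276 genes in the table. All 55 passed the filter on low counts.

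ESCRT complexes collect ubiquitin-tagged cargo on endosomes and cut the membrane neck of inward-budding vesicles. They also cut the bridge between dividing cells and help to close autophagosomes. HOPS and CORVET are tethers that hold late or early endosomal membranes together before fusion, and HOPS also links autophagosomes to lysosomes. Retromer and retriever bring receptors back from endosomes, GARP and EARP receive or return such traffic, and VPS13 proteins move lipids between membranes at contact sites.

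RNA came from esophageal epithelium of C57BL6 mice aged 14 to 15 weeks. Cells that bore integrin-b1 and excluded DAPI were sorted by Cyto-ID, a dye for autophagic vesicles, into Cyto-ID Low and Cyto-ID High. Each fraction had 4 libraries, from 2 female and 2 male animals (Female1, Female2, Male1, Male2) that gave both fractions, and the only treatment the labels name is the Cyto-ID fraction itself. The comparison asks how epithelial cells with much autophagic vesicle content differ in transcript levels from those with little.

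The libraries held 26285150 to 29301054 counts, and member genes had 3 to 13144 counts in a library. The 9 basal keratinocyte markers (Krt5, Krt14, Krt15 and others) summed to 21971 to 26274 CPM (the usual rate of counts for library size, after TMM scaling in edgeR) in Low and 2788 to 4496 in High, and all 9 were lower in High. The 10 suprabasal markers (Krt4, Krt13 and others) summed to 8631 to 25521 CPM in Low and 140828 to 241132 in High, with 9 of 10 higher. Both fractions thus carried squamous keratinocyte transcripts, with few of the basal ones in High. In bulk RNA, fewer cells of a type and less RNA per cell cannot be told apart, and the part of this shift in the results below was not tested. Markers of other cell types stayed low and passed the test in few cases: 1 of 8 tested leukocyte genes was higher and 1 lower, 1 of 8 fibroblast, 0 of 7 endothelial and 1 of 10 muscle genes were lower. The High library of Male2 had the lowest sums of these lists, such as 42.4 CPM of fibroblast genes against 168 to 515 in the other High libraries. Female2 had 19.8 and 117 CPM of 11 gastric genes in Low and High, where the other libraries had 0.664 to 1.39. No defining marker was at 0 in every library.

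Most sorting genes had more transcript in Cyto-ID High. Of the 55 members 34 were higher in High, 3 were lower and 18 did not pass (edgeR's quasi-likelihood test over 17344 genes, Benjamini-Hochberg adjusted p under 0.05). Over all tested genes 48.7% were called, 23.4% higher and 25.3% lower. The median log2 fold change of the members was 0.61 and that of all tested genes −0.09. In 4 of 4 animals 42 members were higher, all 34 called ones among them, and 3 were lower. The 34 were called on these same libraries, so this is no separate support. The share of all genes was not counted. For 35 members every High library lay above every Low library, where 23.6% of all tested genes did so, and for 2 members every High library lay below, against 24.9%.

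The scaling of the libraries set where the line between higher and lower fell. The TMM factors were 1.16 to 1.30 in Low and 0.679 to 0.944 in High, and scaling by total counts only moved the median of all genes by −0.55, to −0.64. Under it 18 members were higher and 10 lower, beside 12.6% and 49.1% of all tested genes, and the members' median was 0.03. The distance between the median of the members and that of all genes was 0.70 with TMM and 0.67 with total counts. This distance could change little, as a change of scaling moves all genes by about the same amount. Fold changes below are therefore relative to TMM scaling, and each called member whose sign turns under total counts is named.

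**Figure D1:**
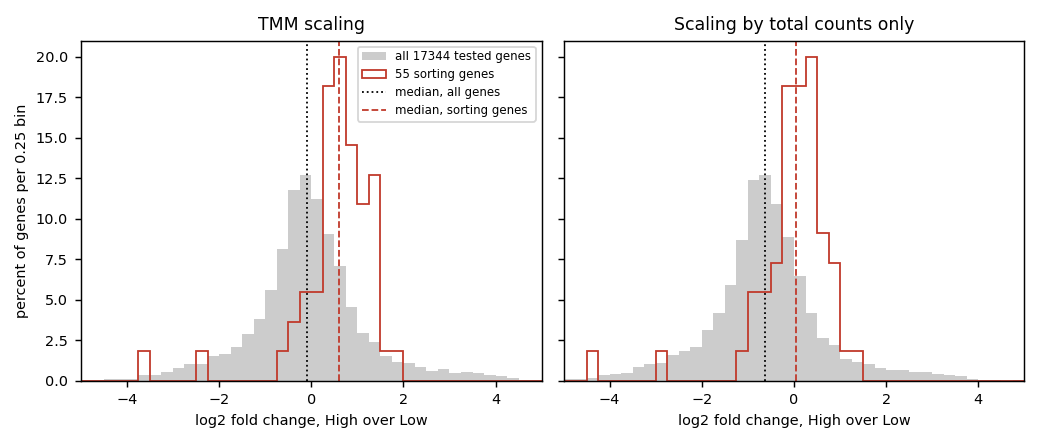
Distribution of log2 fold changes (High over Low, horizontal axis) as percent of genes per bin (vertical axis) for all 17344 tested genes in grey and the 55 sorting genes in red, under TMM scaling and under total counts only. Dotted and dashed lines are the medians: the red distribution lies to the right of the grey one in both panels, at 0.61 against −0.09 and at 0.03 against −0.64. A change of scaling moves both distributions by about the same amount.

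**Figure D2:**
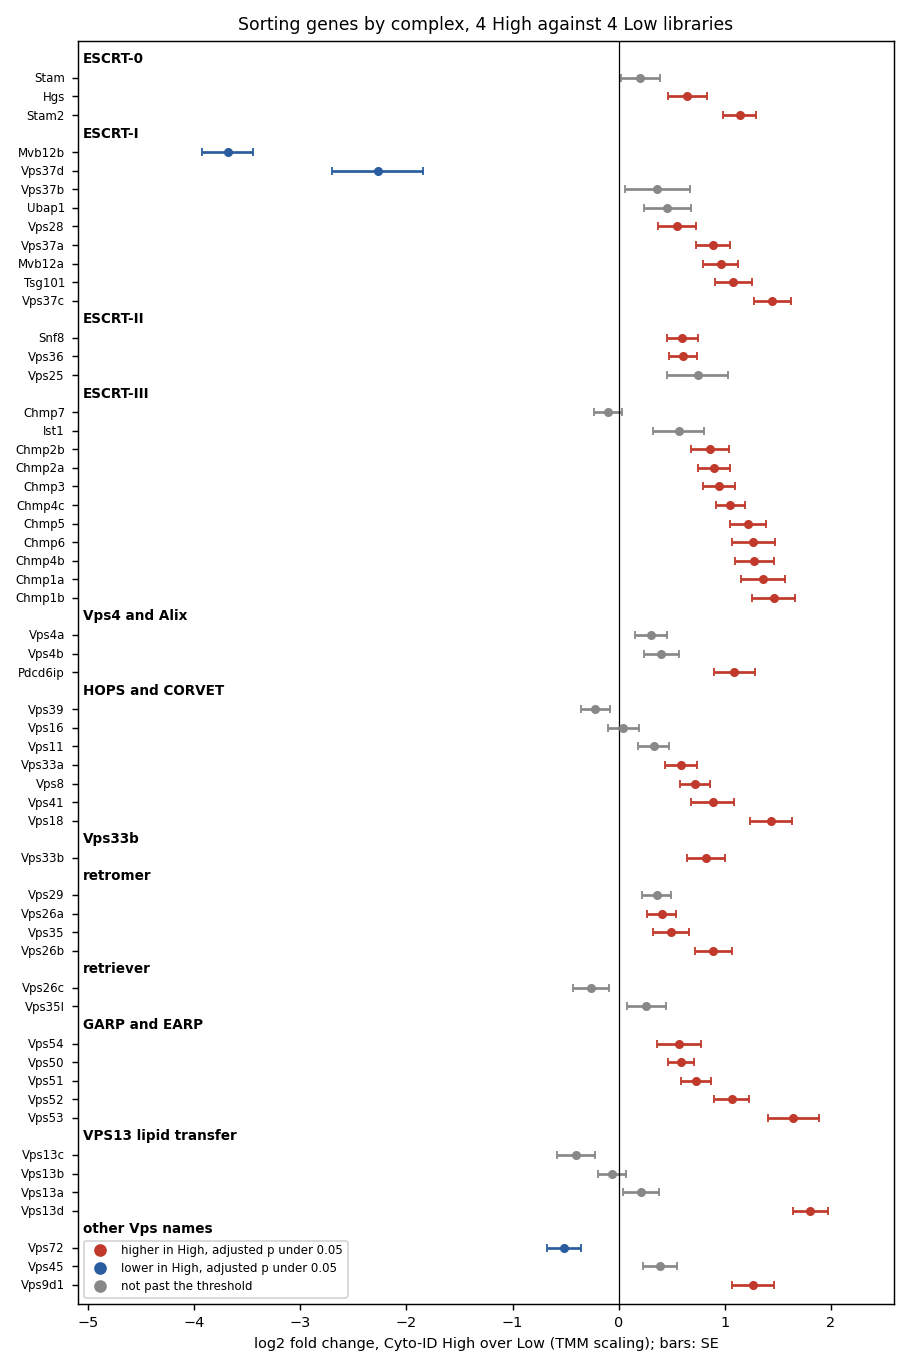
Log2 fold change (High over Low, TMM scaling) of each of the 55 genes with its standard error as bar, ordered by complex, 4 libraries a fraction. Red points are higher and blue points lower at an adjusted p under 0.05: 34 points are red, and the 3 blue ones are Mvb12b, Vps37d and Vps72.

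ESCRT-0 binds ubiquitinated cargo first, through Hgs and a Stam protein. Stam2 rose: it was at 50.5, 49.1, 48.3 and 55.8 CPM in the Low libraries of Female1, Female2, Male1 and Male2, and at 95.5, 130, 96.3 and 127 in their High libraries. The groups did not overlap, and the log2 fold change was 1.14 (SE 0.15, edgeR adjusted p 0.000228). Hgs, the ubiquitin- and lipid-binding subunit, rose from 77.0 ± 6.0 to 122 ± 35 CPM (SD, n = 4 each), by 0.65 (SE 0.18, edgeR adjusted p 0.0145). Under total counts its change was 0.060. The annotation holds a second gene record named Hgs that covers 97.2% of the same exons, so that its counting is uncertain. Stam, the other Stam protein, was at 49.2 ± 12.0 and 56.9 ± 3.4 CPM and did not pass (log2 fold change 0.21, SE 0.18).

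ESCRT-I is a rod of Tsg101, Vps28, 1 of the Vps37 proteins and 1 of Mvb12a, Mvb12b or Ubap1. Of its 9 genes 5 were higher, 2 lower and 2 did not pass, beside 23.4% higher and 25.3% lower of all tested genes. The largest fall of all members was among them. Mvb12b was at 17.5, 23.4, 21.3 and 27.0 CPM in the Low libraries of Female1, Female2, Male1 and Male2, and at 1.85, 1.31, 1.33 and 2.47 in the High libraries. The log2 fold change was −3.69 with an SE of 0.24 (edgeR adjusted p 1.27e-05), or 12.9-fold lower, with 30 counts in the library that had fewest. Mvb12b lies at chr2:33729953-33887946 on the minus strand and Mvb12a at chr8:71542922-71548085 on the plus strand (GRCm38, GENCODE M21). Its relative Mvb12a went the other way, from 26.8, 28.5, 24.5 and 31.1 CPM to 48.8, 52.4, 45.2 and 70.1, by 0.96 (SE 0.16, edgeR adjusted p 0.000918). In every animal Mvb12a was higher and Mvb12b lower in High, with no overlap of the fractions for either.

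Within a library the ratio of 2 genes does not depend on the scaling. With 0.5 added to each count, there were 1.53, 1.22, 1.15 and 1.15 counts of Mvb12a for each count of Mvb12b in the Low libraries, and 26.1, 39.5, 33.4 and 28.1 in the High libraries. Per kilobase of exon Mvb12a stood at 9.01 CPM in Low and 17.6 in High, and Mvb12b at 2.55 and 0.199, so that Mvb12a was the more abundant of the pair in both. The promoter windows of the pair (RefSeq, GRCm38.p6, 250 bases before to 50 after the start site) are shown because these genes moved in opposite directions. Lower case marks that none of the motifs searched further below was found. The window of Mvb12a is 56.3% G and C with 17 CG pairs and that of Mvb12b 55.7% with 4, where the median over all windows is 52.7% with 7.
Mvb12a at chr8:71542680-71542979, plus strand: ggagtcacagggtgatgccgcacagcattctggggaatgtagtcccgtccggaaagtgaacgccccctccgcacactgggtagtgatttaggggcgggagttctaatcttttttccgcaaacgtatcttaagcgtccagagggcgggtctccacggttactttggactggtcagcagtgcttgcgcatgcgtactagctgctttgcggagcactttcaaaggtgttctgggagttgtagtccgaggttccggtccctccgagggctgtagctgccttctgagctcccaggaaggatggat
Mvb12b at chr2:33887897-33888196, minus strand: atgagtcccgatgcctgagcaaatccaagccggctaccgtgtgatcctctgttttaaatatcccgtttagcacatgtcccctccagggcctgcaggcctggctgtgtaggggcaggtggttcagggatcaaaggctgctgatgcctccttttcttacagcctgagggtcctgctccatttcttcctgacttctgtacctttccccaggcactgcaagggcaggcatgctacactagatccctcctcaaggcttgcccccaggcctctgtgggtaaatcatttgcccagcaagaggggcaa

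Tsg101, the cargo-binding subunit that gives ESCRT-I its core, was at 28.0, 28.4, 26.0 and 33.0 CPM in Low and 49.0, 76.2, 52.4 and 66.4 in High, in the animal order used above. It rose by 1.08 (SE 0.17, edgeR adjusted p 0.000611) with no overlap. Vps28, a core subunit, rose from 35.9 ± 3.8 to 53.1 ± 15.4 CPM (SD, n = 4 each), by 0.55 (edgeR adjusted p 0.028). Its change was −0.038 under total counts, and its adjusted p was 0.0594, 0.0715, 0.0699 and 0.0759 without Low Female1, Low Male1, High Female2 or High Male2. Ubap1, the alternative to the Mvb12 proteins, did not pass (0.46, SE 0.22, edgeR adjusted p 0.116).

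The 4 Vps37 paralogs, of which each rod holds 1, differed among themselves. Vps37c was at 36.8, 37.1, 34.4 and 36.8 CPM in Low and 78.4, 103, 85.4 and 131 in High, and rose by 1.45 (SE 0.17, edgeR adjusted p 0.000113). Vps37a rose from 48.2 ± 6.6 to 89.3 ± 13.9 CPM, by 0.89 (SE 0.16, edgeR adjusted p 0.0014), and did not pass under total counts (0.32, adjusted p 0.0786). Vps37d, the rarest of the 4, fell from 1.23 ± 0.40 to 0.249 ± 0.092 CPM (log2 fold change −2.27, SE 0.43, edgeR adjusted p 0.00161) with 3 to 58 counts in a library. Vps37b was the most abundant per kilobase, with 43.0 CPM in Low and 54.8 in High, against 13.4 and 36.7 for Vps37c. Its libraries overlapped and it did not pass (0.36, SE 0.31). Exons of Hip1r lie opposite 32.9% of Vps37b, and strand use in the counting is not given in the sources used here.

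Vps37b, Ubap1, Ist1 and Stam were lowest of the Low libraries in Female2, a set picked after their values were seen. Vps37b was at 147, 49.0, 133 and 150 CPM in Low, and at 144, 122, 130 and 216 in High. Ubap1 was at 117, 56.1, 107 and 93.5 CPM in Low and 121, 116, 117 and 160 in High. In the animals numbered 1 alone the log2 fold changes of Vps37b, Ubap1, Ist1 and Stam were 0.014, 0.13, 0.22 and −0.022. In those numbered 2 alone they were 0.92, 0.92, 1.10 and 0.55, with edgeR adjusted p of 0.0116, 0.00416, 0.00158 and 0.0415, on 2 libraries a fraction. The difference between the numbers was not tested. Immediate early and heat shock genes, which mark stress of dissociation, summed to 16590 CPM in the Low library of Female2 and 15305 to 19092 in the other Low libraries. In High they summed to 16832 CPM in Female2 and to 9960 to 21059 in the others. Of these 10 genes 1 was higher and 2 lower in High, beside 23.4% and 25.3% of all tested genes. A link to the values of Female2 was not tested. Without Low Female2 the changes of Vps37b, Ubap1, Ist1 and Stam were 0.12, 0.29, 0.41 and 0.063, none past the threshold. Without Low Female1 the edgeR adjusted p of Ubap1 was 0.0179 and that of Ist1 0.00715.

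ESCRT-II joins ESCRT-I to the cutting filament. Vps36, its lipid- and ubiquitin-binding subunit, was at 45.0, 49.6, 43.2 and 42.0 CPM in Low and 60.4, 80.2, 62.8 and 70.7 in High, and rose by 0.61 (SE 0.13, edgeR adjusted p 0.00396). Snf8 rose by 0.60 (SE 0.15, edgeR adjusted p 0.0076). Under total counts these changes were 0.035 and 0.031. Vps25, the remaining subunit, had only 20 to 34 counts a library, and exons of Ramp2 on the same strand cover 67.2% of its exon length. Its log2 fold change was 0.74 (SE 0.29, edgeR adjusted p 0.0586). The edgeR adjusted p was 0.0392 with RLE size factors, another scaling of the libraries. It was 0.0144 with at least 10 counts in every library and 0.0405 with no covariate. Under total counts the change of Vps25 was 0.18.

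ESCRT-III is the filament that cuts the membrane. Of its 11 genes 9 were higher, 0 lower and 2 did not pass, with a median of 1.05 (all tested genes: 23.4% higher, 25.3% lower). Under total counts 8 were higher and 1 lower (all tested genes: 12.6% and 49.1%). Chmp6, which starts the filament from ESCRT-II, was at 16.4, 22.8, 16.3 and 20.4 CPM in Low and 36.5, 51.3, 36.2 and 59.7 in High (1.27, SE 0.21, edgeR adjusted p 0.000698). Chmp4b, the main filament protein, was at 113, 99.7, 104 and 131 CPM in Low and 233, 277, 220 and 359 in High (1.28, SE 0.19, edgeR adjusted p 0.000361). Its relative Chmp4c, which delays the last cut of cell division, rose from 38.8 ± 1.7 to 80.6 ± 11.1 CPM (1.05, SE 0.14, edgeR adjusted p 0.000186). Neither gene's fractions overlapped.

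Chmp1a and Chmp1b, late subunits that bind Vps4 and its partners, had the largest rises of the complex. Chmp1a went from 75.8, 94.4, 73.8 and 101 CPM to 170, 230, 190 and 300 (1.36, SE 0.20, edgeR adjusted p 0.000445), and Chmp1b from 46.6, 42.0, 45.1 and 58.9 to 100, 176, 114 and 139 (1.46, SE 0.20, edgeR adjusted p 0.000282). An antisense gene lies opposite 24% of Chmp1b. Chmp5, a regulator of Vps4 through Vta1, rose by 1.22 (SE 0.17, edgeR adjusted p 0.000273), from 61.9 ± 5.2 to 144 ± 28 CPM. Chmp2a, Chmp2b and Chmp3, which end the filament and draw in Vps4, rose by 0.90, 0.86 and 0.95 (edgeR adjusted p 0.000762, 0.00279 and 0.000654). Chmp2b missed the threshold under total counts (0.28, adjusted p 0.114).

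Chmp7, which recruits the filament to the reforming nuclear envelope, was the 1 of 10 Chmp genes that did not pass. It stood at 35.7 ± 3.2 CPM in Low against 33.4 ± 3.6 in High (SD, n = 4 each), with overlapping libraries and a change of −0.10 (SE 0.13, edgeR adjusted p 0.589). Under total counts it was the member of ESCRT-III called lower, at −0.67 (adjusted p 0.000943). Ist1, a filament protein of recycling and division, was at 229, 102, 218 and 155 CPM in Low and 231, 226, 276 and 318 in High. It did not pass (0.57, SE 0.24, edgeR adjusted p 0.0804) and did with the animal as a replicate block (adjusted p 0.0348). DESeq2 gave an adjusted p of 0.0165. The edgeR fits with RLE size factors and with no filter on low counts gave 0.0438 and 0.0349. Under total counts the change of Ist1 was 0.0084.

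The ATPases that take the filament apart, Vps4a and Vps4b, did not pass the test. Vps4b was at 90.1, 101, 91.5 and 107 CPM in Low and 102, 156, 119 and 139 in High, with overlap (0.40, SE 0.16, edgeR adjusted p 0.0671). With the replicate block its adjusted p was 0.0266, and without High Female1 0.0253. DESeq2 gave an adjusted p of 0.0176. The edgeR fits with RLE size factors, with at least 10 counts in every library and with no covariate gave 0.0352, 0.0377 and 0.0496. Without High Female2 the change of Vps4b was 0.26 (adjusted p 0.204), and under total counts −0.18. Vps4a was at 36.8 ± 2.3 and 45.4 ± 8.9 CPM (0.30, SE 0.15, edgeR adjusted p 0.133) and at −0.28 under total counts. The difference of these changes from those of the Chmp genes was not tested. Pdcd6ip, or Alix, which brings Chmp4 to its sites by a route of its own, was the most abundant member by CPM. It rose from 219, 239, 229 and 256 to 381, 572, 424 and 634 CPM, by 1.09 (SE 0.19, edgeR adjusted p 0.00111).

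**Figure D3:**
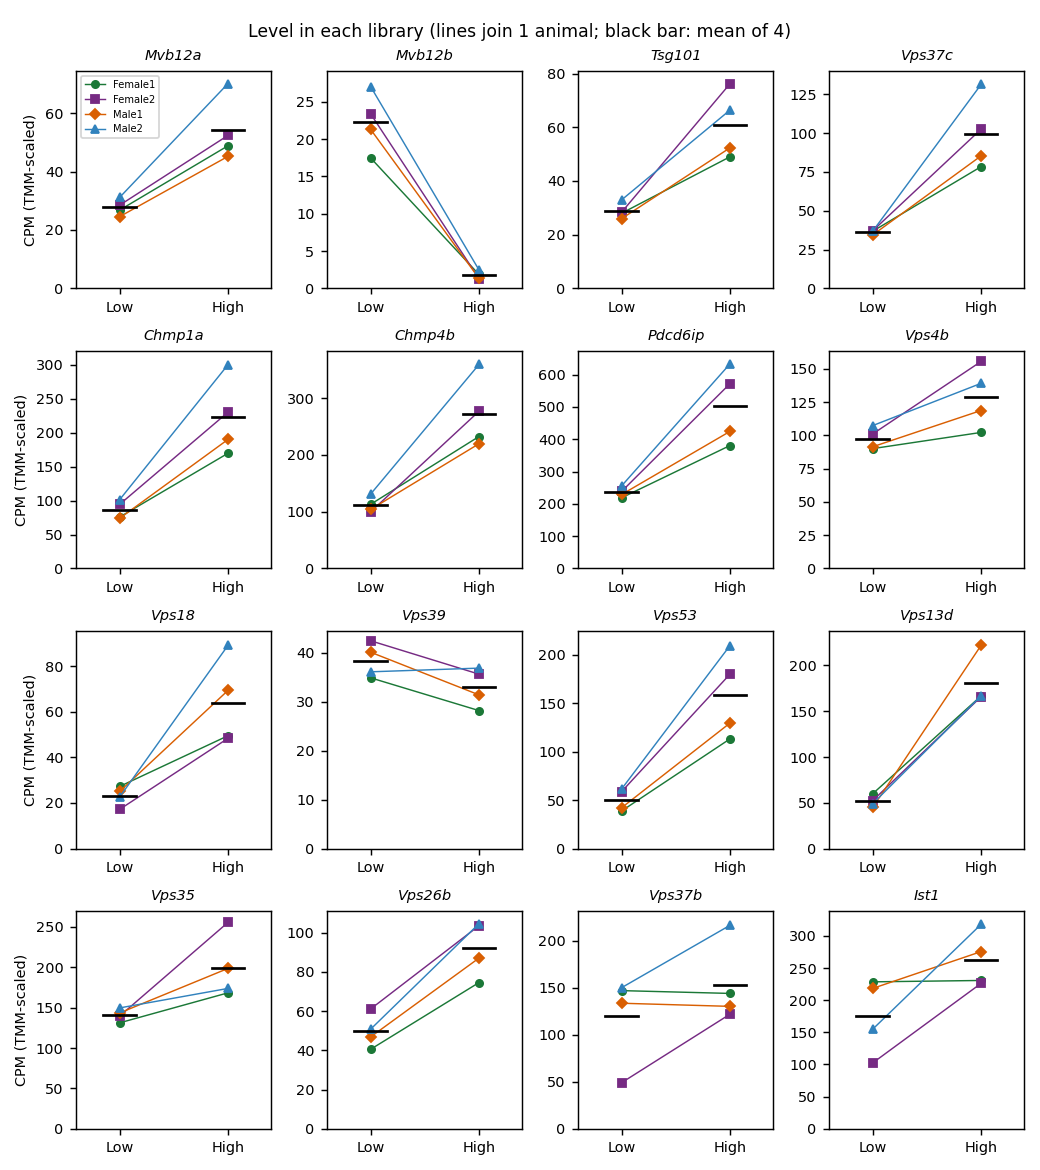
Level of 16 sorting genes in each library in CPM (vertical axis, from 0), Cyto-ID Low on the left and High on the right of each panel, with a line for each animal and a black bar for the mean of 4. Mvb12b falls in every animal while Mvb12a, Tsg101, Vps37c, Chmp1a, Chmp4b, Pdcd6ip, Vps18, Vps53 and Vps13d rise in every animal, Vps39 overlaps between fractions, and Vps37b and Ist1 are lowest in the Low library of Female2.

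HOPS and CORVET share a core of Vps11, Vps16, Vps18 and Vps33a. HOPS adds Vps39 and Vps41, and CORVET adds Vps8 and Tgfbrap1. Of the 7 members of these tethers 4 were higher, 0 lower and 3 did not pass, beside 23.4% and 25.3% of all tested genes. Under total counts 1 was higher and 2 lower (all tested genes: 12.6% and 49.1%). Vps18, a core subunit, was at 27.2, 17.2, 25.0 and 22.6 CPM in Low and 49.5, 48.3, 69.3 and 89.1 in High, with no overlap (1.44, SE 0.19, edgeR adjusted p 0.00023). Vps33a, the core subunit that handles SNARE proteins, rose by 0.59 (SE 0.15, edgeR adjusted p 0.00887), at 0.015 under total counts. Vps16 was at 39.3 ± 4.9 and 40.6 ± 6.3 CPM (0.04, SE 0.14, edgeR adjusted p 0.833) and at −0.53 under total counts. Vps11 was at 43.2 ± 3.4 and 54.7 ± 12.4 CPM, with overlap (0.33, SE 0.15, edgeR adjusted p 0.0877), and its adjusted p without Low Female2 was 0.0487. DESeq2 gave an adjusted p of 0.0314. The edgeR fits with RLE size factors and with at least 10 counts in every library gave 0.0390 and 0.0426. Under total counts the change of Vps11 was −0.25.

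Of the end subunits of HOPS, Vps41 rose and Vps39 did not pass. Vps41 was at 43.8, 60.2, 52.0 and 61.3 CPM in Low and 71.6, 123, 85.6 and 122 in High (0.89, SE 0.21, edgeR adjusted p 0.00543). Vps39 was at 34.9, 42.5, 40.1 and 36.1 CPM in Low and 28.2, 35.7, 31.4 and 36.9 in High, which overlap (−0.22, SE 0.14, edgeR adjusted p 0.227). Vps8 of CORVET rose from 18.1 ± 1.5 to 29.9 ± 4.2 CPM (0.72, SE 0.14, edgeR adjusted p 0.00206). Under total counts Vps39 was lower (−0.79, adjusted p 0.000476), while Vps41 and Vps8 were at 0.29 and 0.14 and did not pass. Within a library there were 2.10, 2.26, 2.02 and 2.11 counts of Vps39 for each of Vps8 in Low, and 1.15, 1.16, 1.07 and 1.06 in High. Vps33b, which pairs with Vipas39 in a separate tether, rose by 0.82 (SE 0.18, edgeR adjusted p 0.00427), from 15.3, 21.6, 19.1 and 18.0 CPM to 24.9, 37.6, 29.6 and 39.1. Under total counts it did not pass (0.24, adjusted p 0.213).

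Ratios were computed for 17 pairs of related members. In 8 of them the fractions did not overlap, each with an exact permutation p of 0.0286, the smallest that 4 against 4 libraries can give. Adjusted over the 17 ratios this is 0.0607, so that 0 passed. Among all pairs of tested genes 48.9% did not overlap, so this count does not set the members apart. The size of the shift did vary between pairs: the log2 ratio of Mvb12a to Mvb12b moved by 4.64, that of Vps39 to Vps41 by −1.08, of Vps37b to Vps37c by −0.98 (with overlap), of Vps39 to Vps8 by −0.94 and of Stam to Stam2 by −0.89. For Chmp2a to Chmp2b it moved by 0.050, for Chmp1a to Chmp1b by −0.091 and for Vps4a to Vps4b by −0.10, with overlap in each. Neither the permutation nor the overlap used the pairing by animal. A sign-flip test on 4 animals could give no p below 0.125, and none was run. Despite overlap, Vps37b to Vps37c was lower in High in every animal. Vps37a to Vps37b and Chmp4b to Chmp4c were higher in every animal. The remaining overlapping ratios differed in direction between animals.

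**Figure D4:**
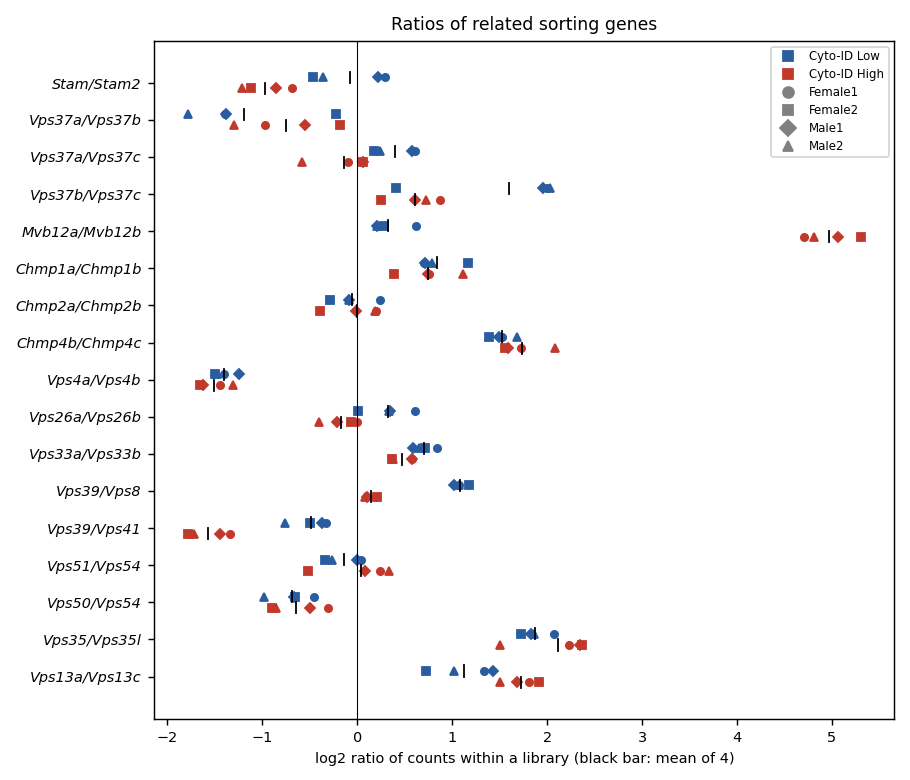
Log2 ratio of the counts of 2 related genes within each library (horizontal axis) for 17 pairs, Low in blue and High in red, with a symbol for each animal and a black bar for the mean of 4. The pair Mvb12a/Mvb12b stands out, from a mean of 0.33 in Low to 4.97 in High, while pairs such as Chmp2a/Chmp2b lie on top of each other.

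Of the 4 retromer genes, which form the coat that returns receptors from endosomes, 3 were higher and 0 lower, with a median of 0.45 (all tested genes: 23.4% higher, 25.3% lower). Under total counts 0 passed in either direction (all tested genes: 12.6% and 49.1%). Vps35, its scaffold, was at 131, 140, 143 and 150 CPM in Low and 168, 256, 199 and 174 in High, without overlap (0.50, SE 0.17, edgeR adjusted p 0.0329). Vps26a was at 61.7, 61.2, 59.4 and 63.8 CPM in Low and 74.3, 98.8, 74.8 and 78.8 in High (0.41, SE 0.13, edgeR adjusted p 0.0304). Under total counts both turned, to −0.070 and −0.16. Leaving out 1 library also ended these calls: for Vps35 the adjusted p was 0.0892, 0.0660, 0.0650, 0.0849 and 0.0703 without Low Female1, Low Female2, Low Male1, High Female2 or High Male1. For Vps26a it was 0.0599, 0.0623, 0.0802 and 0.0558 without Low Female1, Low Male1, High Female2 or High Male2. With no filter on low counts the edgeR adjusted p of Vps35 and Vps26a was 0.0760 and 0.158. In the animals numbered 2 alone it was 0.0652 and 0.0563. Vps26b, the paralog that can take the place of Vps26a, had the firmer change, from 40.6, 61.1, 46.8 and 50.8 CPM to 74.6, 104, 87.1 and 105 (0.89, SE 0.17, edgeR adjusted p 0.00212), at 0.31 under total counts.

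Vps29, the subunit that retromer and retriever share, was at 33.3, 27.1, 33.5 and 28.2 CPM in Low and 39.7, 43.7, 39.0 and 34.2 in High (0.36, SE 0.14, edgeR adjusted p 0.0526). Its adjusted p was 0.0335 with the replicate block, 0.0419 without Low Male1 and 0.0433 without High Male2. The 2 further retriever genes did not pass. Vps26c was at 18.2, 28.6, 23.5 and 23.7 CPM in Low and 18.3, 20.2, 17.6 and 22.4 in High (−0.26, SE 0.17, edgeR adjusted p 0.234), and its adjusted p without Low Female1 was 0.0366. Vps35l was at 38.7 ± 5.1 and 46.5 ± 11.7 CPM (0.26, SE 0.18, edgeR adjusted p 0.281).

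All 5 genes of GARP and EARP, the tethers of vesicles that come back from endosomes, were higher in High, beside 23.4% of all tested genes. Vps53, a shared subunit, was at 38.9, 58.9, 42.2 and 61.6 CPM in Low and 113, 180, 130 and 210 in High (1.65, SE 0.24, edgeR adjusted p 0.000365). Vps52, likewise shared, was at 40.1, 50.9, 44.1 and 46.7 CPM in Low and 82.2, 91.8, 83.9 and 124 in High (1.06, SE 0.16, edgeR adjusted p 0.000511). Vps51 rose by 0.73 (edgeR adjusted p 0.00217), and exons of Tm7sf2 on its strand cover 11.8% of it. Vps50, the subunit particular to EARP, rose by 0.59 (edgeR adjusted p 0.00308), and Vps54, that of GARP, by 0.57 (edgeR adjusted p 0.0462). Under total counts 2 of the 5, Vps52 and Vps53, were higher and 0 lower (all tested genes: 12.6% and 49.1%). Vps54 was then at −0.024. The call of Vps54 was lost without Low Female1 (adjusted p 0.127), Low Female2 (0.0595), Low Male1 (0.119), High Female2 (0.152), High Male1 (0.0509) or High Male2 (0.0920). In these fits its change was 0.34 without High Female2 and 0.43 to 0.64 in the others.

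Among the 4 VPS13 lipid transfer proteins 1 gene rose, a share near the 23.4% of all tested genes. Vps13d, which is needed for normal mitochondrial form and clearance, was at 59.9, 52.4, 44.9 and 49.1 CPM in Low and 167, 166, 222 and 167 in High. The fractions did not overlap, and the change of 1.81 (SE 0.17, edgeR adjusted p 2.64e-05) was the largest rise of the 55 genes with TMM scaling, as was 1.26 under total counts. Vps13d lies at chr4:144972622-145195005 on the minus strand (GRCm38). Vps13a and Vps13b were at 0.21 (SE 0.17) and −0.06 (SE 0.13), and Vps13c, a protein of contacts with late endosomes, at −0.40 (SE 0.18, edgeR adjusted p 0.0957), none past the threshold. Without High Male1 the adjusted p of Vps13c was 0.0295. Under total counts Vps13b and Vps13c were lower, at −0.61 and −0.95.

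The 3 other genes that the rule found have different jobs. Vps9d1, which carries a domain known to activate Rab5, was at 15.6, 19.9, 19.2 and 22.9 CPM in Low and 32.4, 48.2, 41.1 and 66.6 in High (1.27, SE 0.20, edgeR adjusted p 0.000583). Vps45, a regulator of SNARE proteins, was at 13.1 ± 1.4 and 17.2 ± 2.7 CPM (0.39, SE 0.16, edgeR adjusted p 0.0735), with an adjusted p of 0.0233 with the replicate block, 0.0471 without Low Female2 and 0.0442 without High Female1. Vps72 is no sorting gene but a chromatin protein that loads a histone variant. It fell from 41.4 ± 4.1 to 29.0 ± 6.0 CPM (−0.52, SE 0.16, edgeR adjusted p 0.0231). Without High Female1 or High Male1 its adjusted p was 0.0621 and 0.0673, and in the animals numbered 1 and 2 alone 0.00101 and 0.111.

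Levels per kilobase of exon, from GENCODE M21 lengths, give an order among the members. In Low the highest were Chmp2a with 76.9 CPM per kilobase, Chmp4b with 55.2, Chmp2b with 48.2, Vps37b with 43.0 and Chmp5 with 40.8. In High they were Chmp2a with 144, Chmp4b with 134, Chmp5 with 94.9, Chmp2b with 87.6 and Pdcd6ip with 72.8. The fractions thus shared 4 of their 5 highest members. The lowest in High were Vps37d with 0.161 and Mvb12b with 0.199. These levels use all annotated exons of a gene and were not tested.

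Promoter windows were found for 37 of the 55 members. They were searched on both strands for TCACGTGA, a palindrome of the kind that MiT/TFE factors bind in lysosomal genes, for its core CACGTG and for TGACTCA, an AP-1 motif. The palindrome contains the core, so each match of the first is also one of the second. It was found in 4 of 37 members (10.8%), Vps16, Vps26a, Vps33a and Pdcd6ip, and in 1.12% of the 27025 genes with a window. A longer form, with G before and C after these letters, was searched first and found in 3 of 37 (8.11%, against 0.37%), without Pdcd6ip, and the shorter form was taken after that result was seen. The core was found in 5 of 37 (13.5%, against 8.09%), with Vps50 added. TGACTCA was found in 2 of 37 (5.41%, against 5.95%), Ist1 and Vps13d. In Vps13d it was in the listed window at chr4:145190617-145190916. The window at the annotated start of that gene, chr4:145194956-145195255, did not hold it. The palindrome itself holds a CG pair. The windows of Vps16, Pdcd6ip and Vps33a held 28, 27 and 20 CG pairs, and those of Vps26a 37 and 20. The median over all windows was 7. The shares were not matched for CG content, and their difference was not tested. A match is a description of the letters, not of binding.

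The 4 windows with the palindrome are shown because they share these letters, with all motif matches in capitals. It begins 19 bases before the start site in Vps16, 183 in Vps26a and 39 in Pdcd6ip, and Vps33a holds it at 29 and at 13 bases. A second listed window of Vps26a also holds it and is not shown. The log2 fold changes of Vps16, Vps26a and Vps33a were 0.04, 0.41 and 0.59, each below the members' median of 0.61, and that of Pdcd6ip was 1.09, above it.
Vps16 at chr2:130424070-130424369, plus strand: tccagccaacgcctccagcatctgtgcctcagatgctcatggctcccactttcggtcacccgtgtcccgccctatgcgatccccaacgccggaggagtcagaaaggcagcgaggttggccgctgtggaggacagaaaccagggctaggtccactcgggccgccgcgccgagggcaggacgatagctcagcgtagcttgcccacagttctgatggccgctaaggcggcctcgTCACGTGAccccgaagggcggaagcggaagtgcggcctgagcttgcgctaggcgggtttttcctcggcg
Vps26a at chr10:62486756-62487055, minus strand: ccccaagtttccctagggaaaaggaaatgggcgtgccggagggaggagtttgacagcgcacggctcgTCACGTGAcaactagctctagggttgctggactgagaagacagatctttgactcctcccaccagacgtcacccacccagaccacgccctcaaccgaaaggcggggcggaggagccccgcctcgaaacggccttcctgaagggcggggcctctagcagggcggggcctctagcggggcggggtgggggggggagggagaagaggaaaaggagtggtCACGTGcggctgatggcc
Vps33a at chr5:123572966-123573265, minus strand: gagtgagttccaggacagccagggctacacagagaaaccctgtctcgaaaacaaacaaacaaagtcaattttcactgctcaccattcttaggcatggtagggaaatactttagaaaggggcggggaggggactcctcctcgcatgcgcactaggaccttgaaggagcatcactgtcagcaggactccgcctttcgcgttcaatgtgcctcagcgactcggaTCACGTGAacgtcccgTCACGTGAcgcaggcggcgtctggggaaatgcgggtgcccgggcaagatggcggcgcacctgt
Pdcd6ip at chr9:113708210-113708509, minus strand: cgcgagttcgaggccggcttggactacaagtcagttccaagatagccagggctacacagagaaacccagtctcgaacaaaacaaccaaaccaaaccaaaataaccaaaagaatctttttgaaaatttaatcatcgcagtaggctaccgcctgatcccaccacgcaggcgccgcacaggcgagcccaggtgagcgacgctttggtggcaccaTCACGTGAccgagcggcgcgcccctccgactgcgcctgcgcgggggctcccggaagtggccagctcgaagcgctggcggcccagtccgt

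Genes outside the rule that work with these complexes were read from the same fit. Of 78 tested partner genes 35 were higher and 7 lower, beside 23.4% and 25.3% of all tested genes, and their median was 0.35. Under total counts 13 were higher and 27 lower, beside 12.6% and 49.1% of all tested genes, and 9 partners called higher with TMM had negative changes, of −0.23 to −0.018. Among the partners of HOPS and CORVET 14 of 24 were higher and 0 lower, and under total counts 6 and 6 (all tested genes: 12.6% and 49.1%). They included Snap29 (1.41, SE 0.16, edgeR adjusted p 6.89e-05), a SNARE of autophagosome fusion, Arl8b (1.32, SE 0.17, edgeR adjusted p 0.000159), the lysosomal GTPase that binds Vps41, Borcs6 (1.49), a subunit of the complex that recruits Arl8, and Mon1a (1.09), part of the activator of Rab7. An antisense transcript lies opposite 41.2% of the exon length of Borcs6.

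Among the partners of ESCRT 8 of 20 were higher and 4 lower (23.4% and 25.3% of all tested genes), and under total counts 3 and 9 (12.6% and 49.1%). Stambp, a ubiquitin-removing enzyme of endosomes, rose by 1.10 (SE 0.20, edgeR adjusted p 0.00124), and Cc2d1a, a binder of Chmp4, by 1.07 (SE 0.17, edgeR adjusted p 0.000525). Spast, the microtubule-cutting enzyme that Chmp1b recruits, rose by 1.15 (SE 0.19, edgeR adjusted p 0.000868). Cep55, which draws ESCRT to the bridge of dividing cells, fell from 27.8 ± 12.6 to 5.07 ± 3.33 CPM (SD, n = 4 each; −2.49, SE 0.50, edgeR adjusted p 0.00231). Nedd4, a ubiquitin ligase, fell from 660 ± 154 to 304 ± 62 CPM (−1.12, SE 0.23, edgeR adjusted p 0.00265).

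For retromer and WASH 7 of 21 partners were higher and 2 lower (23.4% and 25.3% of all tested genes), and under total counts 2 and 8 (12.6% and 49.1%). Sort1, a receptor that retromer carries, had the largest change of all partners, from 15.4 ± 7.2 to 188 ± 35 CPM (3.60, SE 0.36, edgeR adjusted p 3.99e-05). Ankrd27, a retromer-bound regulator of small GTPases, rose by 1.28 (SE 0.17, edgeR adjusted p 0.000199) and Rab29, a GTPase of the Golgi and lysosome, by 1.04 (SE 0.18, edgeR adjusted p 0.000937). For retriever 6 of 13 partners were higher and 1 lower, and under total counts 2 and 4, to be read against the same shares. Commd10 rose by 1.67 (SE 0.23, edgeR adjusted p 0.000243), Commd8 by 1.09 (SE 0.15, edgeR adjusted p 0.000266) and Commd5 by 1.33 (SE 0.37, edgeR adjusted p 0.0134), the last at 0.259 ± 0.061 and 0.659 ± 0.066 CPM. All 3 belong to the COMMD ring that works with retriever. Exons of another gene on the same strand cover 66.8% of Commd5.

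Without the High library of Male2, in which markers of other cell types were lowest, 32 members were higher and 3 lower, beside 20.5% and 23.8% of all genes tested in that fit. With both libraries of Female2 left out, a choice made after the gastric markers were seen, 32 were higher and 2 lower, as Vps35, Vps26a and Vps72 missed the threshold (edgeR adjusted p 0.0755, 0.0554 and 0.0539), beside 21.6% and 21.7% of all genes. In the animals numbered 1 and 2 in the labels, fitted apart, 34 and 38 members were higher and 3 lower in each. Of all genes tested there 27.3% and 24.1% were higher and 30.9% and 22.1% lower. A test of whether the change differed by sex (edgeR, interaction of sex and fraction) called 0 members and 0 of all 17344 tested genes (0%), and at an unadjusted p under 0.05 it gave 0 members and 19 genes. With 2 animals of each sex and so few genes at a low p, it does not show that the change was alike in both sexes.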

How the data were processed

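Bulk RNA-seq counts per gene were used as the authors deposited them, 1 table for the 8 libraries, in whole reads with no normalization. Per the submitters' processing notes, STAR 2.7.3, DESeq2 and the GRCm38 build were used. The counting tool, annotation, strand setting and filters are not given in the sources used here. Libraries were grouped by the Cyto-ID label.

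Genes passed edgeR's filterByExpr by fraction (17344 tested). edgeR 4.0.16 in R 4.3.3 fitted TMM-scaled counts with sex and fraction as terms by quasi-likelihood, with Benjamini-Hochberg adjustment over all tested genes and a threshold of 0.05. Standard errors are the log2 fold change over the root of F. CPM values are TMM-scaled. The scripts were tested on simulated counts with 200 of 16946 genes changed by a log2 size of 1.5. Of these 70.5% were recovered, with 6 false calls. Far fewer genes changed there than the 48.7% called in the data, so the effect of scaling was not tested. Alternatives were DESeq2 1.42.0, other scalings and filters, a fit with no covariate, a replicate block, the animals numbered 1 or 2 alone and each library left out. Lengths and overlaps came from GENCODE M21 and promoters from RefSeq (GRCm38.p6).

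The members and gene lists were chosen with earlier results of these data known. Within each complex the text names members past the threshold with an absolute log2 fold change of at least 1, or that with the smallest adjusted p, and a set list of core subunits in full. The remaining members are given more briefly. Partners are named at the same size. The labels give both fractions of an animal the same name, so the numbers pair the libraries: deviations of the same animal's libraries correlated at 0.43, 0.32, −0.016 and 0.28 (Female1, Female2, Male1, Male2), and those of different animals at −0.37 to 0.35, the highest being Low Female1 with High Male1. Libraries were no duplicates of each other.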

Additional observations from a re-analysis of the deposited data

Results flagged for a closer look

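In 160 groups of 4 libraries, 10 held a library far from the other 3, and chance gives about 1 group in 20. Vps37b in Low was at 49.0 CPM in Female2 and at 147, 133 and 150 in the others, and its log2 ratio to Vps37c in Low was 0.40 in Female2 against 2.00, 1.96 and 2.03. Vps33a in Low was at 35.5 CPM in Female2 against 27.3, 28.7 and 28.2. Vps72 in Low was at 35.2 CPM in Female1 against 43.4, 43.5 and 43.5. Vps37c in Low was at 34.4 CPM in Male1 against 36.8, 37.1 and 36.8. Vps13d in High was at 222 CPM in Male1 against 167, 166 and 167. Ubap1 in High was at 160 CPM in Male2 against 121, 116 and 117. The log2 ratio of Vps35 to Vps35l in High was 1.498 in Male2 against 2.23, 2.36 and 2.35. The summed gastric genes were at 19.8 CPM in Low and 117 CPM in High of Female2, against 1.39, 0.746 and 0.664 in the other Low and 1.39, 1.26 and 1.08 in the other High libraries.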

How the results depend on the processing

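Under total counts only, 18 members were higher and 10 lower, as were 13 and 27 partners and 2194 and 8514 of all tested genes. Under it the log2 fold changes of 15 members turned from positive to negative. Of these Vps35 (−0.070), Vps26a (−0.16), Vps54 (−0.024) and Vps28 (−0.038) were called higher with TMM. The others were Vps16 (−0.53) and Vps4a (−0.28), now lower, and Stam (−0.35), Vps37b (−0.20), Ubap1 (−0.11), Vps4b (−0.18), Vps11 (−0.25), Vps29 (−0.20), Vps35l (−0.33), Vps13a (−0.33) and Vps45 (−0.19), past the threshold in neither. Some members not called in the main fit also turned sign in further alternatives, past the threshold in none of those. Vps16 did so in the animals numbered 1 (−0.17), without Low Male2 (−0.031) and without High Male2 (−0.045). Over all fits that left out 1 library Vps16 was at −0.045 to 0.10. The others were Stam in the animals numbered 1 (−0.022), Chmp7 in those numbered 2 (0.13) and Vps13b with RLE and DESeq2 (0.0080 and 0.0082). Scaling by total counts moves all genes by the same amount in each library. The other alternatives that did not leave out a single library gave 32 to 40 higher members: 40 with RLE size factors and with DESeq2 (25.3% and 25.8% of all genes tested there were higher), 33 with no filter (11.5%), 38 with at least 10 counts in every library (28.3%) and 37 with no covariate (24%). Leaving out 1 library gave 30 to 36 higher and 2 to 4 lower members, and 4 to 6 lower partners, 4 without Low Female2, against 7. Of all genes tested in these fits 19.6% to 23% were higher and 20.6% to 24.1% lower. In the animals numbered 1 alone 12 partners were lower, beside 30.9% of all genes tested there. The fits of animals numbered 1 or 2 alone have 1 residual degree of freedom. With the animal as a replicate block 38 members were higher and 3 lower, all 34 calls among them, and 41 and 9 partners, beside 25.4% and 28.5% of all tested genes (23.4% and 25.3% without it). Apart from total counts, 35 of 55 members kept their direction and side of the threshold in every alternative run for them, and 20 with it included. Vps37d, among both, was dropped by the filter of at least 10 counts and has no value there. Of the 17 ratios 8 to 11 did not overlap. Leaving out Female2 was chosen after seeing the data. Depth limits Vps37d, Vps25 and Mvb12b in High, which rest on few counts.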
